A study of Mus musculus with 12 samples.

Results

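The 48 genes described here encode proteins of mitosis: the mitotic cyclins and their kinase, other mitotic kinases, the chromosomal passenger complex, the spindle checkpoint, the ubiquitin machinery of mitotic exit, kinesins, spindle and cytokinesis proteins, centromere and kinetochore proteins, and condensin with 2 chromosome-bound proteins. They were a named list of symbols, matched through Entrez IDs to the rows of an expression table. All 48 were found among its 9842 genes.

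Messenger RNA was sequenced from mouse B cells of LSD1-knockout and wild-type mice in 12 libraries; LSD1, a histone demethylase, is the product of Kdm1a. There were 3 libraries in each of 4 groups, eMZB_KO, eMZB_WT, TrB_KO and TrB_WT. Each library came from 2000 sorted cells of female C57BL/6J mice. TrB are splenic transitional B cells, sorted without stimulation as B220+ CD93+ cells that lacked CD11b, F4/80 and Thy1.1. The eMZB are marginal zone B cells obtained ex vivo, by 3 days of culture of such transitional cells with DL1, a ligand of Notch receptors, and BAFF, which keeps B cells alive, and sorted after it. KO cells came from LSD1-knockout mice and WT cells from wild-type mice. The labels used here do not give the allele, any Cre driver or the age of the mice. Nothing in the labels says that the replicates were separate animals, so the p-values measure how far these libraries vary, and that variation may be technical.

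Mitosis is driven by cyclin-dependent kinase 1 with cyclins A and B, and is ended when the anaphase-promoting complex (APC/C) marks cyclin B for destruction. Between those events Aurora and Polo-like kinases build the spindle, kinesins move chromosomes and microtubules, and the spindle checkpoint holds the APC/C back until every kinetochore is attached. Transcripts of these genes are made mostly late in the cell cycle, so they are widely used as markers of dividing cells. Resting splenic B cells divide little, whereas activated B cells divide quickly.

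Values are FPKM (fragments or reads per kilobase of gene and per M reads, M for mega) divided by a median-of-ratios factor for each library, called scaled FPKM. They are per length, so levels of different genes can be set side by side. Log2 changes and their standard errors (SE) come from limma on log2(scaled FPKM + 1), a scale that understates the change of genes near 1. P-values were adjusted by Benjamini-Hochberg over all 9842 genes, and a gene was called higher or lower at an adjusted p under 0.05. Means are given ± SD over n = 3 libraries.

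The libraries held 7.24 to 19.35 M reads, of which 1.96 to 8.78 M fell in listed genes and 2359 to 21006 in the mitosis genes. Kdm1a had 2.65, 2.53 and 2.66 scaled FPKM in eMZB_KO against 7.53, 8.63 and 4.68 in eMZB_WT, and 3.35, 2.56 and 2.99 in TrB_KO against 8.54, 7.93 and 3.47 in TrB_WT. The libraries labelled eMZB_WT 3 and TrB_WT 3 therefore lay between the KO libraries and the other libraries of their group. Kdm1a was not called in either contrast (limma adjusted p = 0.148 in eMZB and 0.249 in TrB), and the WT calls that rest on these 2 libraries are named with the counts that follow. Of the sorting markers, Cd93 averaged 0.831 ± 0.158 in eMZB_KO and 5.22 ± 0.782 in TrB_KO, and 0.873 ± 0.203 in eMZB_WT and 5.0 ± 0.780 in TrB_WT. Cr2, which encodes CD21, averaged 64.4 ± 1.32 in eMZB_KO and 13.3 ± 1.79 in TrB_KO, and 65.5 ± 4.90 in eMZB_WT and 8.77 ± 1.14 in TrB_WT. Cd1d1, which encodes CD1d, a marker of the eMZB gate, averaged 27.8 ± 2.90 in eMZB_KO and 22.6 ± 0.243 in TrB_KO, and 22.8 ± 0.241 in eMZB_WT and 22.3 ± 2.52 in TrB_WT. Library TrB_KO 3 stood apart, with 61.6% of its reads in listed genes and 285 listed genes at 0.

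**Figure D1:**
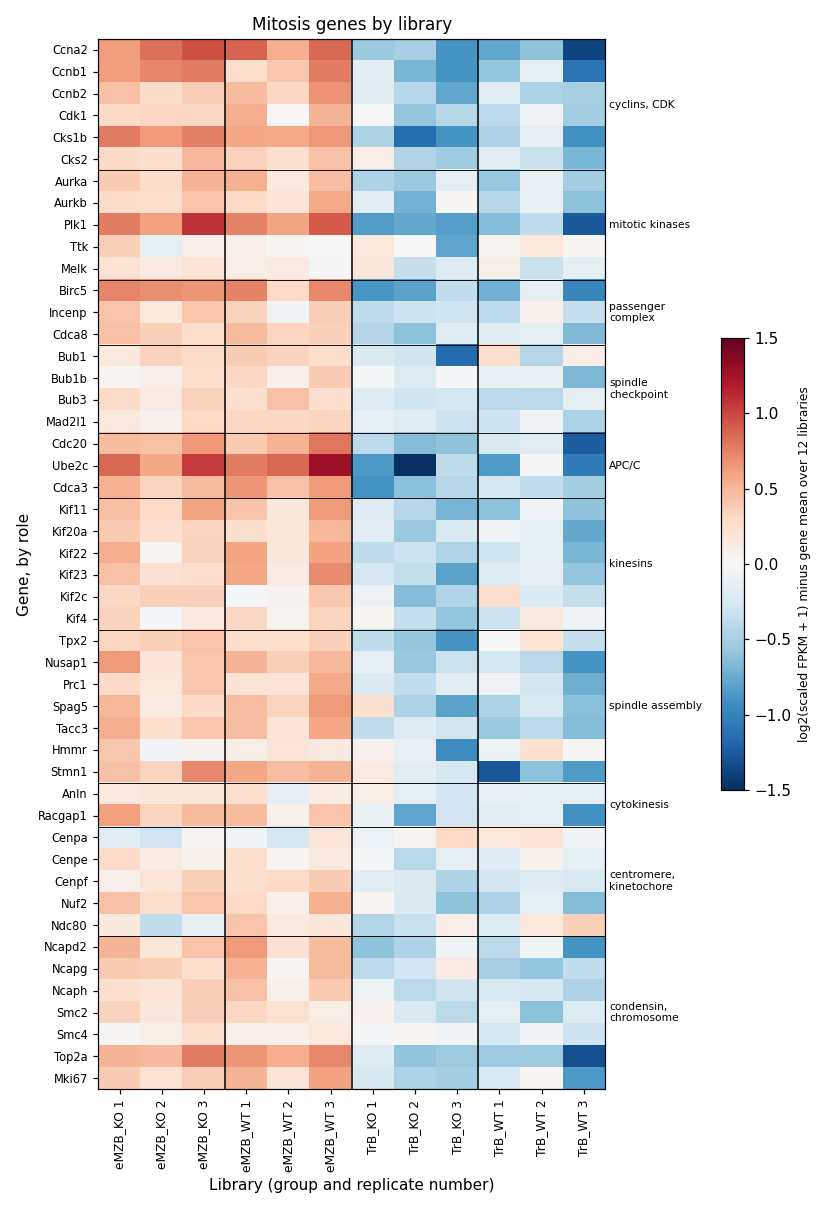
Heat map of the 48 mitosis genes (rows, ordered by role) in the 12 libraries (columns, by group and replicate number). Colour gives log2(scaled FPKM + 1) minus the gene's mean over the 12 libraries; most rows are red in the 6 eMZB libraries and blue in the 6 TrB libraries, while Cenpa runs the other way and Ttk, Hmmr and Ndc80 show little contrast.

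Most mitosis genes were higher in eMZB than in TrB, in LSD1-knockout and in wild-type cells. In KO, 37 of the 48 genes were called higher in eMZB_KO than in TrB_KO, against 14.2% of all genes, and 0 were called lower, against 13.2%. In WT, 37 of 48 were called higher in eMZB_WT than in TrB_WT, against 14.6% of all genes, and 0 lower, against 12.7%. The median log2 change of the 48 genes was 0.66 in KO and 0.72 in WT, whereas that of all genes was -0.01 in KO and -0.00 in WT. The median ratio of group means was 1.89 in KO and 2.0 in WT.

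Both genotypes shared 34 of these calls, and genes called higher in both made up 10.1% of the table. The KO and WT contrasts use different libraries but share the estimate of the spread, the scaling over all 12 libraries and the filter of the table. In 40 of 48 genes all 3 eMZB_KO libraries lay above all 3 TrB_KO libraries, as did 22.7% of all genes. In 38 of 48 all eMZB_WT libraries lay above all TrB_WT libraries, as did 21.8% of all genes. These counts and the 34 shared calls include genes that the filter of the table admitted through eMZB alone. They were not taken without those genes, so they are a description. Cell type, culture, stimulation and sort differ together between eMZB and TrB and cannot be told apart. Nor can a larger share of dividing cells be told apart from more RNA of these genes per cell.

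The sum of the 48 genes was 270, 241 and 284 scaled FPKM in eMZB_KO, against 162, 133 and 142 in TrB_KO. In WT it was 274, 245 and 292 in eMZB_WT, against 141, 162 and 118 in TrB_WT. Each eMZB library lay above each TrB library, and the KO and WT ranges overlapped within both cell types. As a share of the reads in listed genes, which does not use the scaling factors, the 48 genes took 0.257% to 0.295% in eMZB_KO and 0.136% to 0.169% in TrB_KO, and 0.250% to 0.308% in eMZB_WT and 0.120% to 0.170% in TrB_WT. Both measures include genes that the filter of the table admitted through eMZB alone.

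**Figure D2:**
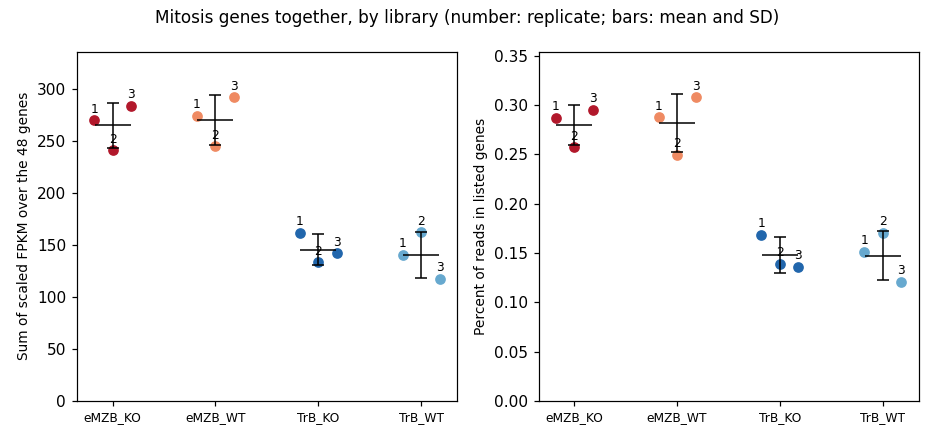
Left, the sum of scaled FPKM over the 48 mitosis genes; right, their reads as a percent of all reads in listed genes; each point is 1 library with its replicate number, and bars give the mean and SD of the 3 libraries of a group. The 6 eMZB libraries sit between 241 and 292 on the left, all above the TrB libraries, which sit between 118 and 162.

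Every gene of the table reached 1 FPKM in at least 3 libraries, and this filter bears on the counts. All 48 mitosis genes reached it in 3 or more eMZB libraries, but 32 did so in 3 or more TrB libraries. The other 16 entered the table only through their eMZB values, so a higher eMZB level was built into their selection: Aurka, Plk1, Melk, Birc5, Cdca8, Bub1, Kif2c, Kif4, Prc1, Spag5, Hmmr, Anln, Cenpe, Cenpf, Nuf2 and Ncapg. Among the 32, 27 were called higher in KO and 28 in WT, against 12.5% and 13.7% of the 8998 genes that met the same condition. Their median log2 change was 0.69 in KO and 0.76 in WT. The sum of the 32 was 233, 208 and 247 scaled FPKM in eMZB_KO against 142, 119 and 128 in TrB_KO, and 238, 215 and 253 in eMZB_WT against 123, 143 and 104 in TrB_WT. Every eMZB library thus lay above every TrB library for these 32 as well. Calls of the other 16 genes are a description wherever they are given.

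The count of calls moved when single libraries were left out. Without the library eMZB_KO 3, 24 genes were called higher in KO, without TrB_KO 2, 26, and without TrB_KO 3, the library that stood apart, 33. Over all genes, 995 were called higher in KO without eMZB_KO 3, against 1398 with all libraries. With any 1 library left out the KO count over all genes ran from 995 to 1609. Without both libraries labelled wild type with low Kdm1a, 18 genes were called higher in WT, and 45 of 48 had a positive change. Over all genes 1052 were called higher there, against 1440 with all libraries. The median log2 change of the 48 was then 0.52, against 0.72 with all libraries. The 19 WT calls lost there were those of Ccnb1, Cdk1, Cks2, Aurkb, Incenp, Bub1b, Ube2c, Kif11, Kif20a, Kif23, Prc1, Spag5, Racgap1, Cenpf, Nuf2, Ncapd2, Ncaph, Smc4 and Mki67. On FPKM as deposited, with no scaling, 12 genes were called higher in KO and 39 in WT, with all 48 positive in both. Of the 37 KO calls, 11 were among those 12, namely Ccna2, Ccnb1, Cks1b, Plk1, Birc5, Bub1, Cdc20, Ube2c, Cdca3, Kif2c and Tpx2.

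Across the fits that leave out 1 of the 12 libraries in turn, 23 of the 37 genes called in KO and 27 of the 37 called in WT were called every time. The KO call was lost in at least 1 such fit for Cdk1, Cks2, Aurkb, Bub1, Mad2l1, Kif20a, Kif2c, Prc1, Stmn1, Cenpf, Nuf2, Ncapd2, Ncapg and Smc2. In WT it was lost in at least 1 such fit for Cdk1, Incenp, Bub1b, Kif20a, Prc1, Racgap1, Cenpf, Nuf2, Smc2 and Smc4.

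Transcripts from lists that mark other cells differed between eMZB and TrB. For each list with a listed gene, the ranges were apart in 1 or both genotypes. Of 8 stromal markers 1 was listed, the chemokine gene Cxcl12, with 2.61 to 22.3 scaled FPKM in eMZB_KO and 0.00914 to 0.129 in TrB_KO, and 1.84 to 15.2 in eMZB_WT and 0.170 to 0.297 in TrB_WT; the collagen genes of that list were not listed. Neutrophil markers had 0 of 8 listed, T cell markers 1 of 8, macrophage and monocyte markers 3 of 8, erythroid markers 2 of 10 and plasmablast markers 7 of 8. The listed plasmablast markers summed to 153 to 172 in eMZB_KO and 131 to 178 in TrB_KO, and to 182 to 183 in eMZB_WT and 105 to 132 in TrB_WT. These sums hide members that went both ways. Of the 7, 1 was called higher and 3 lower in KO, against 14.2% and 13.2% of all genes. In WT 3 were called higher and 0 lower, against 14.6% and 12.7%. The T cell gene Lck had 7.57 to 8.51 in eMZB_KO and 6.06 to 7.19 in TrB_KO, and 6.13 to 6.75 in eMZB_WT and 4.36 to 7.59 in TrB_WT. The macrophage genes summed to 4.25 to 5.45 in eMZB_KO and 4.31 to 5.12 in TrB_KO, and to 2.48 to 3.36 in eMZB_WT and 5.05 to 6.55 in TrB_WT. The 2 listed erythroid genes, Hbb-bs and Tfrc, summed to 8.57 to 9.50 in eMZB_KO and 6.39 to 8.08 in TrB_KO, and to 6.16 to 6.53 in eMZB_WT and 7.55 to 10.7 in TrB_WT. The 2 listed pro- and pre-B cell markers of 8, Rag1 and Vpreb3, summed to 75.8 to 78.4 in eMZB_KO and 196 to 234 in TrB_KO, and to 58.6 to 71.4 in eMZB_WT and 223 to 278 in TrB_WT. The 4 listed germinal centre markers of 8 summed to 7.32 to 8.47 in eMZB_KO and 10.7 to 13.2 in TrB_KO, and to 8.38 to 8.96 in eMZB_WT and 12.7 to 16.6 in TrB_WT. The share of reads in listed genes was 29.0% to 41.7% in eMZB_KO and 17.2% to 61.6% in TrB_KO, and 27.8% to 35.3% in eMZB_WT and 16.7% to 20.1% in TrB_WT. The part of these differences in the mitosis result was not tested.

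Promoter letters were examined as a description of these genes, which were listed as genes of mitosis. Promoters of late cell cycle genes are known for the CHR element, read here as TTTGAA or TTCGAA, and for CCAAT boxes. Both were searched on both strands, so TTCAAA and ATTGG count too, and sites may overlap. RefSeq windows of 300 bases (GRCm38.p6, 250 before to 50 after the start) were at hand for 41 of the 48 genes, as 43 windows. Genes without one were Aurkb, Ccna2, Incenp, Kif20a, Smc4, Stmn1 and Tpx2. CHR letters stood in 76.7% of the mitosis windows, CCAAT letters in 76.7% and both in 69.8%. Over all windows of the RefSeq table the shares were 19.2%, 37.4% and 7.5%, and over windows of the listed genes 14.9%, 38.9% and 6.2%. Both motifs stood in 74.2% of the 31 windows of genes called higher in eMZB in KO and WT, and in 58.3% of the 12 windows of the other mitosis genes. CHR letters alone ran the other way, with 74.2% and 83.3%, and CCAAT letters stood in 80.6% and 66.7%. Whether these shares differ was not tested.

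The windows below show the 4 genes of the cyclin-destruction, Polo and topoisomerase steps with large changes, then 1 gene called in neither genotype that has the same letters, then 1 called in both that has neither motif. Capitals mark CHR and CCAAT letters, and each sequence runs 5′ to 3′ along its gene. In Ube2c a CCAAT and an ATTGG share 2 letters. The windows lie at chr2:164769679-164769978 on the plus strand (Ube2c), chr7:122159185-122159484 on the plus strand (Plk1), chr11:99024140-99024439 on the minus strand (Top2a), chr4:118437294-118437593 on the minus strand (Cdc20), chr9:83834439-83834738 on the plus strand (Ttk) and chr11:117848987-117849286 on the plus strand (Birc5).
Ube2c: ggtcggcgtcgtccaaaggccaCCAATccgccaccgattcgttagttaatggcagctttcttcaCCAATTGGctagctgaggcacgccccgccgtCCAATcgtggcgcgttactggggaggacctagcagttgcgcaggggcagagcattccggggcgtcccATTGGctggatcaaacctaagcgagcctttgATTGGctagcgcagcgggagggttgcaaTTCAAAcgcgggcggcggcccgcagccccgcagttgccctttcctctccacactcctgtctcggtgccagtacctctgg
Plk1: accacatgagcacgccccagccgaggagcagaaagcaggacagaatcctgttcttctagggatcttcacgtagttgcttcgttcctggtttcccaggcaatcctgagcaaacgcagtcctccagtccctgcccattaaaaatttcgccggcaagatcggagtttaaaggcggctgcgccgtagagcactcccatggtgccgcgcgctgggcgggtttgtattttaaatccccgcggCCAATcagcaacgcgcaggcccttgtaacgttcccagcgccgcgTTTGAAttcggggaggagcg
Top2a: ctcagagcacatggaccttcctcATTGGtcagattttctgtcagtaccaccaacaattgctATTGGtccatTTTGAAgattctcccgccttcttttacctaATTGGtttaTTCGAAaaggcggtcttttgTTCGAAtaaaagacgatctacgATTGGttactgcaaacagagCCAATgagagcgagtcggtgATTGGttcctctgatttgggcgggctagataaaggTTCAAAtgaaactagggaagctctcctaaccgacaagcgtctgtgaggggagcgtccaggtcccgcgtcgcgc
Cdc20: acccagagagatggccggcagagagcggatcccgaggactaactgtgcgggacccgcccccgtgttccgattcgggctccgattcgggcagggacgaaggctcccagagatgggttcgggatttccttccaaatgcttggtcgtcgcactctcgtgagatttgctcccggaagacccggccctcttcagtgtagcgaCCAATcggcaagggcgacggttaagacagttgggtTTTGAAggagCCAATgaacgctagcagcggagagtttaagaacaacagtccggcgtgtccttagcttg
Ttk: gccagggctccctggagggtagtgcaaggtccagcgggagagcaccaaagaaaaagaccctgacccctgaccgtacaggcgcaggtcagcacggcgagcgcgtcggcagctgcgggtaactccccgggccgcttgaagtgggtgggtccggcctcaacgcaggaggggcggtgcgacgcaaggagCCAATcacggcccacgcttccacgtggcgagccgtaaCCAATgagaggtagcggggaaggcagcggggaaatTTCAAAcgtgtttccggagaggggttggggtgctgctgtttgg
Birc5: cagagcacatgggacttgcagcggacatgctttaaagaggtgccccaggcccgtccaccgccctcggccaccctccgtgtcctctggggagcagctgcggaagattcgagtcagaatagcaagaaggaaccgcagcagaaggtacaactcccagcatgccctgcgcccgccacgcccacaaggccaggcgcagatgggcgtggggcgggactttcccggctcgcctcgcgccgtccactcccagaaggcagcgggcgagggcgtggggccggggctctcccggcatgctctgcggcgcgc

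Top2a carried 4 CHR and 6 CCAAT matches in its window, and Ube2c 1 and 6. Cdc20 and Ttk each held 1 CHR and 2 CCAAT matches, yet Cdc20 was called higher in eMZB in both genotypes and Ttk in neither. A letter match is a description of these windows, and binding was not measured.

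All 6 genes of the cyclin and kinase module were called higher in eMZB in both genotypes. Ccna2 (cyclin A2, chr3:36564865-36573038 in mm10), which acts from S phase into early mitosis, had 7.39, 8.59 and 9.46 scaled FPKM in eMZB_KO against 2.67, 2.83 and 1.93 in TrB_KO. In WT Ccna2 had 9.04, 6.90 and 8.85 in eMZB_WT against 2.16, 2.56 and 1.09 in TrB_WT. The groups did not overlap, the means stood 3.42-fold higher in KO and 4.27-fold higher in WT, with a log2 change of 1.45 (SE 0.19; adjusted p = 0.000124) in KO and 1.69 (SE 0.19; adjusted p = 3.49e-05) in WT by limma.

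Cyclin B1, the partner that takes CDK1 into mitosis, was higher as well. Its gene Ccnb1 (chr13:100778739-100786486) had 5.31, 5.78 and 5.95 scaled FPKM in eMZB_KO against 2.68, 1.53 and 1.20 in TrB_KO, and 3.89, 4.42 and 5.99 in eMZB_WT against 1.73, 2.71 and 0.898 in TrB_WT. No library of one cell type reached the other, with a log2 change of 1.29 (SE 0.24; adjusted p = 0.00173) in KO and 1.09 (SE 0.24; adjusted p = 0.00492) in WT by limma. Without both libraries labelled wild type with low Kdm1a the WT change of Ccnb1 was 0.69 and not called (adjusted p = 0.0551). Ccnb2, the second B-type cyclin, averaged 6.20 ± 0.404 in eMZB_KO and 3.12 ± 0.833 in TrB_KO, and 6.89 ± 1.0 in eMZB_WT and 3.34 ± 0.594 in TrB_WT.

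Cdk1 itself (chr10:69335146-69352912) had smaller log2 changes than Ccna2 and Ccnb1. It had 3.16, 3.19 and 3.18 scaled FPKM in eMZB_KO against 2.40, 1.27 and 1.51 in TrB_KO, and 3.94, 2.35 and 3.82 in eMZB_WT against 1.57, 2.26 and 1.36 in TrB_WT. The lowest eMZB_WT library lay just above the highest TrB_WT library. On the log2 scale it changed by 0.64 (SE 0.19; adjusted p = 0.0239) in KO and 0.67 (SE 0.19; adjusted p = 0.0188) in WT by limma. The KO call was lost without any 1 of TrB_KO 2, TrB_KO 3 or the 3 eMZB_KO libraries (adjusted p 0.0516 to 0.0921). The WT call was lost without any 1 of TrB_WT 1, TrB_WT 3, eMZB_WT 1 or eMZB_WT 3 (adjusted p 0.0566 to 0.081), and without both libraries labelled wild type with low Kdm1a (adjusted p = 0.167).

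Both CDK-binding subunits, Cks1b and Cks2, were called as well. Cks1b (chr3:89415472-89418291) had 15.8, 14.3 and 15.5 scaled FPKM in eMZB_KO against 6.10, 3.47 and 4.28 in TrB_KO, and 13.6, 13.5 and 14.3 in eMZB_WT against 6.10, 8.02 and 4.21 in TrB_WT. All eMZB libraries lay above all TrB libraries, with a log2 change of 1.55 (SE 0.19; adjusted p = 7.02e-05) in KO and 1.10 (SE 0.19; adjusted p = 0.001) in WT by limma. Cks2 changed on the log2 scale by 0.65 (SE 0.17; adjusted p = 0.0131) in KO and 0.74 (SE 0.17; adjusted p = 0.0065) in WT, on means of 9.27 ± 0.961 in eMZB_KO and 5.68 ± 1.66 in TrB_KO.

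**Figure D3:**
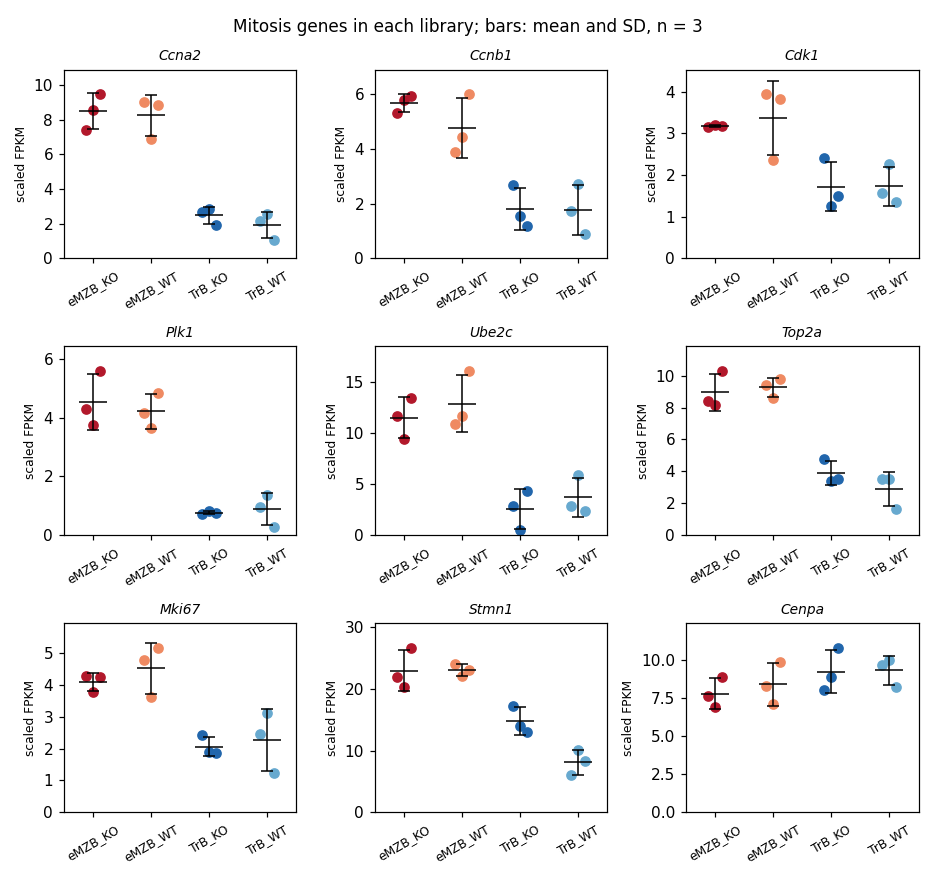
Scaled FPKM (vertical axes, each starting at 0) of 9 mitosis genes in the 12 libraries; points are libraries, and bars give the mean and SD of the 3 libraries of a group. Plk1 shows a wide gap between eMZB and TrB for its level, Cdk1 a narrow one, Stmn1 sits between 13.0 and 17.3 in TrB_KO against 5.96 and 10.0 in TrB_WT, and the 4 groups overlap for Cenpa.

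Of the 5 mitotic kinases, 3 were called higher in eMZB in each genotype. Plk1 (chr7:122159435-122169884), the Polo-like kinase of centrosome maturation and mitotic entry, had 4.28, 3.75 and 5.58 scaled FPKM in eMZB_KO against 0.727, 0.819 and 0.749 in TrB_KO. In WT Plk1 had 4.16, 3.65 and 4.84 in eMZB_WT against 0.979, 1.37 and 0.294 in TrB_WT. No TrB library came near the eMZB range. Its means were 5.93-fold higher in eMZB_KO and 4.78-fold higher in eMZB_WT, with a log2 change of 1.64 (SE 0.20; adjusted p = 7.84e-05) and 1.51 (SE 0.20; adjusted p = 0.000152) by limma. Plk1 is among the genes that the table lists through their eMZB values alone, so this fold is a description. Its TrB values rest on few reads, 13 to 54 in TrB_KO and 5 to 32 in TrB_WT.

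The Aurora kinases moved by smaller steps, and Aurka is listed through eMZB alone. Aurka, the kinase of spindle poles, averaged 3.37 ± 0.380 in eMZB_KO and 1.56 ± 0.408 in TrB_KO, and 3.34 ± 0.600 in eMZB_WT and 1.56 ± 0.475 in TrB_WT. Aurkb, the kinase of the passenger complex, averaged 7.73 ± 0.575 in eMZB_KO and 4.83 ± 1.41 in TrB_KO, and 7.94 ± 1.24 in eMZB_WT and 4.38 ± 0.961 in TrB_WT. Both were called in both genotypes. The checkpoint kinase gene Ttk had 2.08, 1.19 and 1.55 in eMZB_KO against 1.69, 1.41 and 0.388 in TrB_KO, and 1.55, 1.47 and 1.40 in eMZB_WT against 1.48, 1.69 and 1.47 in TrB_WT. Those ranges overlapped, with a log2 change of 0.31 (SE 0.22; adjusted p = 0.327) in KO and -0.04 (SE 0.22; adjusted p = 0.902) in WT, and Melk was not called in either genotype.

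All 3 further subunits of the chromosomal passenger complex were called higher in both genotypes. Birc5 (chr11:117849237-117855743) encodes survivin, which brings the complex to centromeres. It had 4.28, 4.14 and 4.02 scaled FPKM in eMZB_KO against 0.734, 0.814 and 1.46 in TrB_KO, and 4.30, 2.88 and 4.22 in eMZB_WT against 0.925, 1.90 and 0.609 in TrB_WT. The groups were apart in both genotypes, with a log2 change of 1.38 (SE 0.21; adjusted p = 0.000462) in KO and 1.19 (SE 0.21; adjusted p = 0.00126) in WT by limma; like Plk1, Birc5 is listed through eMZB alone. Cdca8, or borealin, also listed through eMZB alone, changed by 0.77 (SE 0.16, adjusted p = 0.00384) in KO and 0.71 (SE 0.16, adjusted p = 0.00615) in WT on the log2 scale by limma. The scaffold gene Incenp changed by 0.66 (SE 0.15; adjusted p = 0.0053) in KO and 0.44 (SE 0.15; adjusted p = 0.0414) in WT, and its eMZB_WT and TrB_WT libraries overlapped; the WT call held in 5 of the 12 fits with 1 library left out.

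The spindle checkpoint genes gave 3 of 4 calls in each genotype. Bub3, the most abundant of the 4, averaged 22.8 ± 1.88 scaled FPKM in eMZB_KO and 15.8 ± 0.677 in TrB_KO, and 23.9 ± 1.87 in eMZB_WT and 15.2 ± 1.74 in TrB_WT. Mad2l1, which encodes the inhibitor MAD2, averaged 7.17 ± 0.680 in eMZB_KO and 5.26 ± 0.370 in TrB_KO, and 8.02 ± 0.0835 in eMZB_WT and 5.01 ± 0.915 in TrB_WT. Both were called in both genotypes. Bub1b, which encodes BubR1, was called in WT (log2 change 0.55, SE 0.15, adjusted p = 0.0186) and not in KO (0.21, SE 0.15, adjusted p = 0.359). For the kinase gene Bub1 the call was in KO (0.82, SE 0.24, adjusted p = 0.0225) and not in WT (0.36, SE 0.24, adjusted p = 0.289), and library TrB_KO 3 held 5 of its reads against 36 and 55 in the other TrB_KO libraries. Neither gene was called in the interaction (limma adjusted p = 0.818 for Bub1b and 0.853 for Bub1), so the 2 genotypes were not shown to differ. Bub1 is listed through eMZB alone, so its KO call is a description.

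Genes of APC/C-driven proteolysis rose in both genotypes, 3 of 3. Ube2c (chr2:164769929-164772902), the ubiquitin-conjugating enzyme of the APC/C, had 11.7, 9.43 and 13.4 scaled FPKM in eMZB_KO against 2.83, 0.498 and 4.36 in TrB_KO. In WT Ube2c had 10.9, 11.7 and 16.1 in eMZB_WT against 2.87, 5.87 and 2.38 in TrB_WT. The TrB libraries spread widely but stayed below every eMZB library. On the log2 scale it changed by 1.98 (SE 0.39; adjusted p = 0.00241) in KO, the largest of the 48 genes there, and 1.61 (SE 0.39; adjusted p = 0.00845) in WT by limma; its SE was also the largest. In TrB_KO 2 it had 6 reads. Without both libraries labelled wild type with low Kdm1a the WT change was 1.25 and not called (adjusted p = 0.0949).

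Cdc20 (chr4:118432901-118437343), the activator that the checkpoint inhibits, had 4.77, 4.61 and 5.50 scaled FPKM in eMZB_KO against 2.15, 1.65 and 1.73 in TrB_KO, and 4.43, 4.98 and 6.25 in eMZB_WT against 2.55, 2.72 and 0.755 in TrB_WT. Every eMZB library exceeded every TrB library, with a log2 change of 1.07 (SE 0.24; adjusted p = 0.005) in KO and 1.11 (SE 0.24; adjusted p = 0.00401) in WT by limma. Cdca3 (chr6:124829530-124833701), an APC/C substrate that acts at mitotic entry, had 5.23, 4.49 and 5.06 in eMZB_KO against 1.33, 1.82 and 2.22 in TrB_KO, and 5.89, 4.89 and 5.77 in eMZB_WT against 2.70, 2.38 and 2.05 in TrB_WT. It too was apart in both genotypes, by 1.10 (SE 0.13; adjusted p = 7.15e-05) in KO and 0.95 (SE 0.13; adjusted p = 0.000226) in WT on the log2 scale.

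Kinesin genes were called higher for 5 of 6 in KO and 4 of 6 in WT. Of the 6, Kif2c and Kif4 are listed through eMZB alone. Kif11 (chr19:37376382-37421863), the motor that pushes spindle poles apart, had 4.64, 4.07 and 5.24 scaled FPKM in eMZB_KO against 2.60, 2.07 and 1.54 in TrB_KO, and 4.56, 3.66 and 5.44 in eMZB_WT against 1.69, 3.00 and 1.73 in TrB_WT. The groups were apart, with a log2 change of 0.89 (SE 0.18; adjusted p = 0.0035) in KO and 0.84 (SE 0.18; adjusted p = 0.00518) in WT by limma. The KO call of Kif11 was lost on FPKM as deposited (adjusted p = 0.0526). The cytokinesis motors Kif20a and Kif23 and the chromosome-arm motor Kif22 were called in both genotypes, with log2 changes of 0.64, 0.78 and 0.70 in KO and 0.63, 0.78 and 0.84 in WT. Without both libraries labelled wild type with low Kdm1a the WT calls of Kif11, Kif20a and Kif23 were lost. Kif2c, a microtubule depolymerase of kinetochores, was called in KO (0.74, SE 0.20, adjusted p = 0.0138) and not in WT (0.25, SE 0.20, adjusted p = 0.377), and the chromokinesin gene Kif4 in neither.

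Of 7 spindle genes, 5 were called higher in each genotype, and Prc1, Spag5 and Hmmr are listed through eMZB alone. Tacc3 (chr5:33658128-33672203), which stabilises spindle microtubules, had 8.74, 6.99 and 7.85 scaled FPKM in eMZB_KO against 4.19, 4.85 and 4.53 in TrB_KO, and 8.18, 6.67 and 9.01 in eMZB_WT against 3.54, 4.05 and 3.25 in TrB_WT. The groups were well apart, with a log2 change of 0.68 (SE 0.12; adjusted p = 0.0013) in KO and 0.95 (SE 0.12; adjusted p = 0.000106) in WT by limma. Nusap1 (chr2:119618298-119650165), which bundles microtubules near chromosomes, had 6.55, 4.58 and 5.48 in eMZB_KO against 3.43, 2.27 and 2.87 in TrB_KO, and 5.90, 5.23 and 5.83 in eMZB_WT against 3.04, 2.63 and 1.64 in TrB_WT. It too showed no overlap, with 0.76 (SE 0.17; adjusted p = 0.00533) in KO and 0.97 (SE 0.17; adjusted p = 0.00113) in WT. Prc1, which bundles microtubules of the spindle midzone, was called in both genotypes, but in KO the call held in only 5 of the 12 fits with 1 library left out and not with the replicate number as a block. In WT it was lost without eMZB_WT 3 and without both libraries labelled wild type with low Kdm1a. Hmmr, a spindle assembly gene, was called in neither.

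Stmn1 and Tpx2 were the spindle genes whose cell type changes differed most in size between genotypes. Stmn1 (chr4:134468320-134473843) encodes stathmin, which destabilises microtubules. It had 21.9, 20.2 and 26.7 scaled FPKM in eMZB_KO against 17.3, 13.9 and 13.0 in TrB_KO, and 24.1, 22.1 and 23.0 in eMZB_WT against 5.96, 10.0 and 8.37 in TrB_WT. The eMZB groups overlapped, while all TrB_KO libraries lay between TrB_WT and eMZB. On the log2 scale it changed by 0.60 (SE 0.16; adjusted p = 0.0136) in KO and 1.43 (SE 0.16; adjusted p = 3.6e-05) in WT, both called; the KO call was lost without eMZB_KO 3 and on FPKM as deposited.

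For Tpx2 (chr2:152847964-152895321), the activator of Aurora A, the larger change was in KO. It had 2.67, 2.75 and 2.95 scaled FPKM in eMZB_KO against 1.25, 0.962 and 0.585 in TrB_KO, and 2.51, 2.53 and 2.77 in eMZB_WT against 1.95, 2.38 and 1.32 in TrB_WT. All eMZB libraries exceeded the TrB libraries of their genotype, but the change was called in KO (0.98, SE 0.16, adjusted p = 0.000692) and not in WT (0.34, SE 0.16, adjusted p = 0.137). In the interaction (the KO minus WT change in eMZB less that in TrB), Stmn1 had -0.82 (SE 0.23; adjusted p = 0.512) and Tpx2 0.65 (SE 0.23; adjusted p = 0.686) by limma, so the difference between genotypes was not called for either. The spindle pole gene Spag5 was called in WT (0.93, SE 0.23, adjusted p = 0.0096) and not in KO (0.65, SE 0.23, adjusted p = 0.0502), with -0.27 (SE 0.32; adjusted p = 0.902) in the interaction; with the replicate number as a block it was called in KO as well.

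Condensin and chromosome genes were called higher for 6 of 7 in KO and 7 of 7 in WT. Top2a (chr11:98992947-99024199), the topoisomerase that untangles sister chromatids, had 8.39, 8.18 and 10.3 scaled FPKM in eMZB_KO against 4.76, 3.37 and 3.52 in TrB_KO, and 9.38, 8.61 and 9.81 in eMZB_WT against 3.52, 3.54 and 1.64 in TrB_WT. The groups were far apart, with a log2 change of 1.03 (SE 0.19; adjusted p = 0.0017) in KO and 1.44 (SE 0.19; adjusted p = 0.000151) in WT by limma. Mki67 (chr7:135689784-135716450), whose product Ki-67 coats mitotic chromosomes and is the common marker of cycling cells, had 4.30, 3.77 and 4.25 in eMZB_KO against 2.42, 1.91 and 1.86 in TrB_KO, and 4.79, 3.64 and 5.17 in eMZB_WT against 2.46, 3.13 and 1.23 in TrB_WT. Ki-67 transcripts were thus about 1.99-fold higher in eMZB in both genotypes, by 0.74 (SE 0.20; adjusted p = 0.0137) in KO and 0.79 (SE 0.20; adjusted p = 0.00979) in WT on the log2 scale. Without both libraries labelled wild type with low Kdm1a the WT change of Mki67 was 0.45 and not called (adjusted p = 0.0698). On FPKM as deposited the KO change was 0.97 for Mki67 (adjusted p = 0.138) and 1.30 for Top2a (adjusted p = 0.0515), neither called.

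The condensin subunits Ncapd2, Ncapg, Ncaph and Smc2, which compact chromosomes, were called in both genotypes, with log2 changes of 0.75, 0.52, 0.53 and 0.48 in KO and 0.88, 0.82, 0.61 and 0.53 in WT. Of these, Ncapg is listed through eMZB alone. The WT calls of Ncapd2 and Ncaph were lost without both libraries labelled wild type with low Kdm1a. In KO, with 1 library left out, the call held in 8 of 12 fits for Ncapd2 and in 7 of 12 for Ncapg and Smc2. Smc4, their shared ATPase partner, averaged 10.5 ± 0.962 in eMZB_KO and 9.47 ± 0.288 in TrB_KO, and 10.4 ± 0.398 in eMZB_WT and 8.20 ± 0.949 in TrB_WT. It was called in WT (0.31, SE 0.10, adjusted p = 0.0292) and not in KO (0.13, SE 0.10, adjusted p = 0.336), with -0.18 (SE 0.13; adjusted p = 0.856) in the interaction, and the WT call held in 7 of 12 such fits.

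Of the cytokinesis pair, 1 gene was called in both genotypes. Racgap1 (chr15:99620496-99651656), of the centralspindlin complex, had 6.40, 5.10 and 5.73 scaled FPKM in eMZB_KO against 3.53, 1.79 and 2.97 in TrB_KO, and 5.70, 4.04 and 5.52 in eMZB_WT against 3.33, 3.37 and 1.58 in TrB_WT. All eMZB libraries lay above the TrB libraries, with a log2 change of 0.87 (SE 0.22; adjusted p = 0.0112) in KO and 0.72 (SE 0.22; adjusted p = 0.0282) in WT by limma. The WT call was lost without TrB_WT 3, without eMZB_WT 1, without eMZB_WT 3 and without both libraries labelled wild type with low Kdm1a, and the KO call on FPKM as deposited (adjusted p = 0.107). Anln, which encodes the contractile ring protein anillin, averaged 1.06 ± 0.0160 in eMZB_KO and 0.724 ± 0.233 in TrB_KO, and 0.967 ± 0.254 in eMZB_WT and 0.693 ± 0.0229 in TrB_WT, and was called in neither.

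Centromere and kinetochore genes gave the lowest share of calls, 2 of 5 in each genotype. Cenpf and Nuf2 were called in both, but both are listed through eMZB alone, so these calls are a description. Cenpa, which encodes the centromeric histone H3 variant, had 7.61, 6.88 and 8.86 scaled FPKM in eMZB_KO against 8.01, 8.90 and 10.8 in TrB_KO, and 8.27, 7.07 and 9.87 in eMZB_WT against 9.69, 9.98 and 8.25 in TrB_WT. Its groups overlapped, and it was the single gene of the 48 with a negative change in both genotypes, -0.22 (SE 0.14; adjusted p = 0.279) in KO and -0.14 (SE 0.14; adjusted p = 0.488) in WT. Ndc80, which couples kinetochores to microtubules, averaged 2.96 ± 0.719 in eMZB_KO and 2.71 ± 0.765 in TrB_KO, and 4.11 ± 0.581 in eMZB_WT and 3.65 ± 0.890 in TrB_WT, also with overlap. The kinetochore motor gene Cenpe was not called either.

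In all, 8 genes were called in neither genotype: Ttk, Melk, Kif4, Hmmr, Anln, Cenpa, Cenpe and Ndc80. A p that misses the threshold does not show equal levels, and 6 of the 8 were low, with every group mean under 2 scaled FPKM. By voom on whole reads recovered from the FPKM values, which does not add 1, 44 of 48 genes were called higher in KO, among them Ttk, Melk, Kif4, Hmmr, Anln and Cenpe, whereas in WT the 37 calls stayed the same genes. Cenpa and Ndc80 were called by neither method. In TrB_KO 3, the library that stood apart, Ttk had 0.388 scaled FPKM, against 1.69 and 1.41 in the other TrB_KO libraries. Hmmr had 0.286 there, against 1.58 and 1.28.

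**Figure D4:**
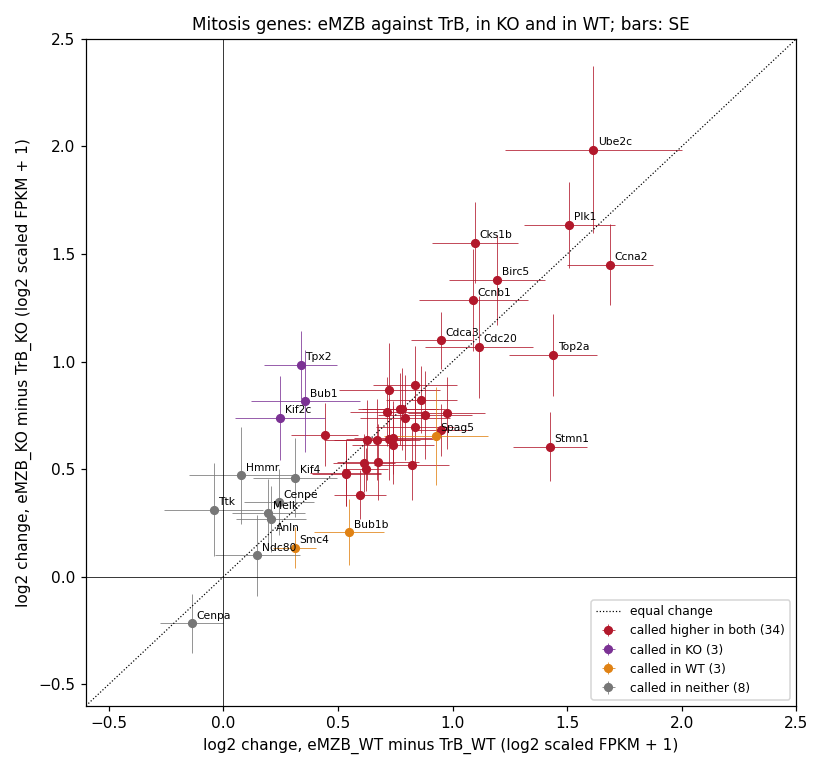
Log2 change of eMZB over TrB for each of the 48 mitosis genes, in WT (horizontal axis) and in KO (vertical axis), on log2(scaled FPKM + 1); bars are SE, colours give the calls, and the dotted line marks equal change. The 34 genes called in both fill the upper right, with Ube2c, Plk1 and Ccna2 at the far end; Stmn1 lies below the line, and Tpx2, called in KO, above it.

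Levels differed widely among the genes themselves. Mean levels ran from 0.940 scaled FPKM (Cenpf) to 22.9 (Stmn1) in eMZB_KO and from 0.967 (Anln) to 23.9 (Bub3) in eMZB_WT. In TrB_KO they ran from 0.395 (Cenpf) to 15.8 (Bub3), and in TrB_WT from 0.434 (Cenpf) to 15.2 (Bub3). The median gene stood at 4.34 in eMZB_KO and 1.94 in TrB_KO, and at 4.37 in eMZB_WT and 1.92 in TrB_WT. A mean under 1 was found for 1 gene in eMZB_KO and 9 in TrB_KO, and for 1 in eMZB_WT and 6 in TrB_WT.

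Libraries of a group also differed together. The library labelled TrB_WT 3 was the lowest of its group for 33 of the 48 genes, eMZB_WT 2 for 35 and eMZB_KO 2 for 34. TrB_WT 2 was the highest of its group for 33, TrB_KO 1 for 30 and the library labelled eMZB_WT 3 for 27. Spread between libraries was wider in TrB, with a median coefficient of variation of 10.9% in eMZB_KO and 27.5% in TrB_KO, and 14.7% in eMZB_WT and 27.3% in TrB_WT.

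LSD1 status changed no mitosis gene past the threshold in either cell type. In eMZB, 0 of 48 genes were called higher in eMZB_KO than in eMZB_WT, against 0.335% of all genes, and 0 lower, against 0.0711%. No gene of the 48 had an unadjusted p under 0.05 there, against 530 of all 9842 genes, and voom also called 0. In TrB, 0 of 48 were called higher in TrB_KO than in TrB_WT, against 0.386% of all genes, and 0 lower, against 0.112%. There 3 of the 48 had an unadjusted p under 0.05, against 975 of all 9842 genes, and voom called 0. With so few calls over the whole table, counts of 0 among 48 genes are near the background.

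The 95% intervals are on log2(scaled FPKM + 1), which compresses changes of genes at low levels. The fit shares the residual spread of a gene over all 4 groups, so its interval is equally wide in TrB and eMZB. Libraries varied more in TrB, with a median coefficient of variation of 27.5% in TrB_KO and 27.3% in TrB_WT. It was 10.9% in eMZB_KO and 14.7% in eMZB_WT. The TrB intervals may therefore be too narrow and the eMZB intervals too wide. In eMZB the interval of the log2 change lay within ±1 for 48 of 48 genes. In TrB it did so for 45 of 48, the exceptions being Stmn1, Bub1 and Ube2c. For low genes this is no bound on the fold: by voom on recovered reads, 4 estimates in TrB lay beyond ±1, those of Bub1 (-3.03), Hmmr (-1.46), Tpx2 (-1.30) and Ttk (-1.15), none called, and 0 in eMZB. Of the TrB_KO libraries, TrB_KO 3 was the lowest for each of these 4 genes. Within ±0.5 it lay for 32 genes in eMZB and 24 in TrB. The median change was -0.02 in eMZB, where all genes had -0.00, and 0.00 in TrB, where all genes had 0.01. Without both libraries labelled wild type with low Kdm1a, 0 genes were called in either cell type, and the median was 0.03 in eMZB and -0.12 in TrB.

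The usual markers of cycling cells were not called between genotypes. Mki67 averaged 4.10 ± 0.292 scaled FPKM in eMZB_KO and 4.53 ± 0.799 in eMZB_WT, a log2 change of -0.11 (SE 0.20; adjusted p = 1) by limma. In TrB it averaged 2.06 ± 0.311 in TrB_KO and 2.27 ± 0.968 in TrB_WT, a change of -0.05 (SE 0.20; adjusted p = 0.943). For Top2a the estimate was -0.05 (SE 0.19; adjusted p = 1) in eMZB and 0.36 (SE 0.19; adjusted p = 0.554) in TrB. For Ccnb1 it was 0.23 (SE 0.24; adjusted p = 1) in eMZB and 0.03 (SE 0.24; adjusted p = 0.977) in TrB, and for Cdk1 -0.04 (SE 0.19; adjusted p = 1) in eMZB and -0.01 (SE 0.19; adjusted p = 0.992) in TrB. The 95% intervals in TrB ran from -0.48 to 0.37 for Mki67 and -0.06 to 0.77 for Top2a. They ran from -0.49 to 0.55 for Ccnb1 and -0.42 to 0.40 for Cdk1. With the spread shared over all groups, these TrB intervals may be too narrow. Several of the estimates nearest to 0 turned sign with the processing.

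The gene nearest to a call in TrB was Stmn1, with 17.3, 13.9 and 13.0 scaled FPKM in TrB_KO against 5.96, 10.0 and 8.37 in TrB_WT. All TrB_KO libraries lay above all TrB_WT libraries, with a log2 change of 0.80 (SE 0.16; adjusted p = 0.0537) by limma. It was called where genes with a mean under 2 scaled FPKM were left out (adjusted p = 0.0407) and without TrB_WT 2 (adjusted p = 0.028), and over all 21 alternatives its adjusted p ran from 0.028 to 0.483. In eMZB the same gene had 21.9, 20.2 and 26.7 in eMZB_KO against 24.1, 22.1 and 23.0 in eMZB_WT, which overlapped.

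Tpx2 pointed the other way in TrB, with 1.25, 0.962 and 0.585 scaled FPKM in TrB_KO against 1.95, 2.38 and 1.32 in TrB_WT. Here all TrB_KO libraries lay below all TrB_WT libraries, at -0.57 (SE 0.16; adjusted p = 0.21) by limma and -1.30 by voom (adjusted p = 0.111). Bub1 had 0.980, 0.877 and 0.0337 in TrB_KO against 1.73, 0.710 and 1.46 in TrB_WT, an estimate of -0.53 (SE 0.24; adjusted p = 0.491) by limma and -3.03 by voom (adjusted p = 0.169), with 5 reads in TrB_KO 3. Tacc3 was the other gene whose TrB_KO libraries all lay above TrB_WT (0.26, SE 0.12, adjusted p = 0.508). Non-overlap of this kind, 2 genes above and 1 below, compares with 6.14% and 4.37% of all genes.

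In eMZB the smallest p was that of Ndc80, with 3.73, 2.30 and 2.86 scaled FPKM in eMZB_KO against 4.78, 3.73 and 3.81 in eMZB_WT. The lowest value of eMZB_WT equalled the highest of eMZB_KO to 3 digits, and the change was -0.38 (SE 0.19; adjusted p = 0.975) by limma. Mad2l1 had 7.04, 6.56 and 7.91 in eMZB_KO against 7.95, 7.99 and 8.11 in eMZB_WT, a small shift without overlap (-0.15, SE 0.11, adjusted p = 1). These were the 2 genes with all eMZB_KO libraries below eMZB_WT, and 0 lay above, against 9.29% and 9.13% of all genes. Kif2c had 1.83, 1.93 and 1.93 in eMZB_KO against 1.25, 1.36 and 2.02 in eMZB_WT, which overlapped, with an estimate of 0.20 (SE 0.20; adjusted p = 1). For Cdca3 the estimate was -0.13 (SE 0.13; adjusted p = 1).

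**Figure D5:**
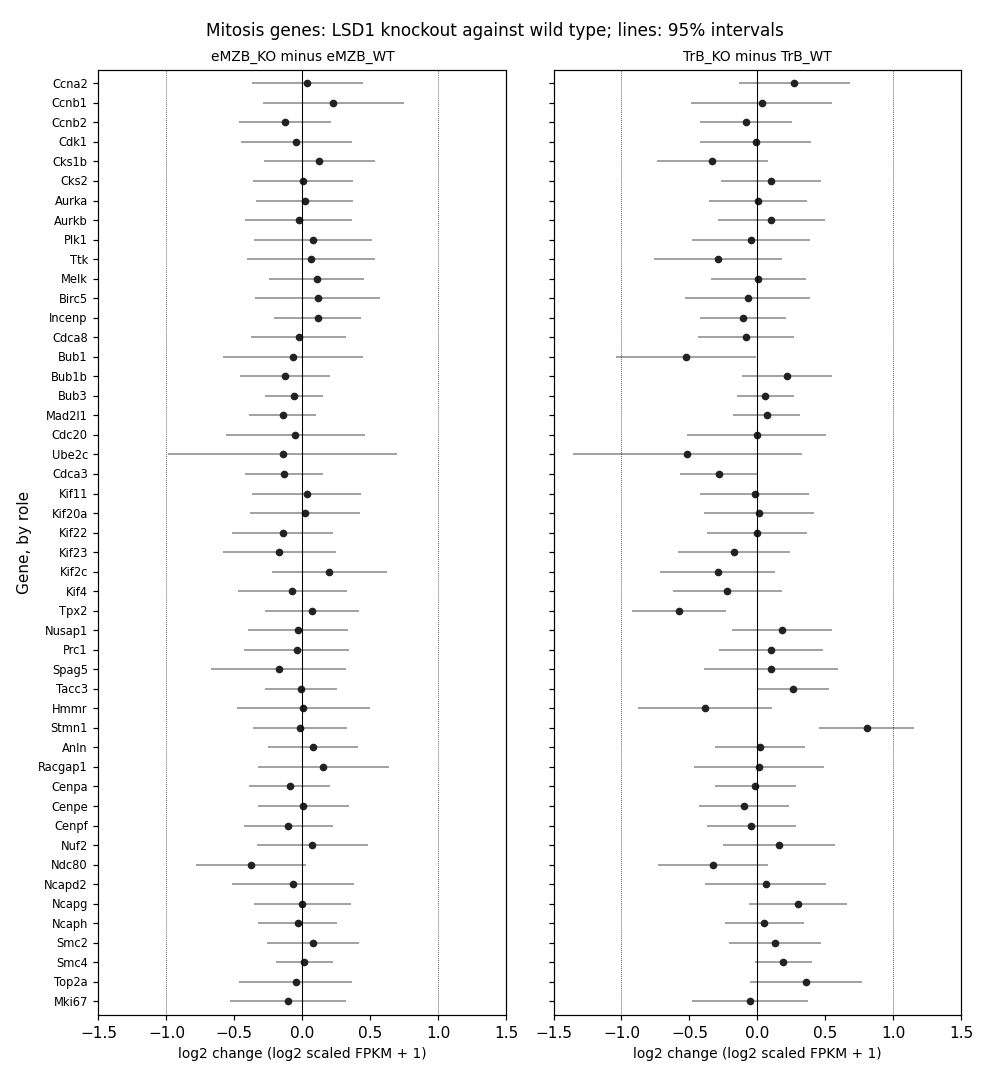
Log2 change of KO over WT for each of the 48 mitosis genes in eMZB (left) and TrB (right) on log2(scaled FPKM + 1); points are the limma estimates and lines their 95% intervals, with dotted lines at -1 and 1. Nearly all points lie close to 0, and Stmn1 in TrB is the farthest from it, at 0.80. The intervals use a spread shared by all groups, so lines may be too short in TrB and too long in eMZB.

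The response to LSD1 loss was not shown to differ between cell types for any mitosis gene. In the interaction 0 of 48 genes were called higher and 0 lower, against 0.0102% and 0% of all genes. Unadjusted p was under 0.05 for Stmn1 and Tpx2, and for 674 of all 9842 genes, and voom called 0. Next came Kif2c (0.49, SE 0.28, adjusted p = 0.797) and Cks1b (0.46, SE 0.27, adjusted p = 0.812).

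Other genes of the cycle, from lists outside the 48, gave mixed calls between cell types. Over all genes, 14.2% were called higher and 13.2% lower in KO, and 14.6% higher and 12.7% lower in WT, and the counts of each list stand beside those shares. None of these lists was split by the filter of the table. Genes admitted through 1 cell type alone may be among them, so their counts between cell types are a description. Of 72 listed further mitosis genes, 20 were called higher and 1 lower in eMZB_KO, with a median log2 change of 0.22, and 21 higher and 1 lower in eMZB_WT, with 0.20. Tuba1b, an alpha-tubulin gene, averaged 58.0 ± 3.20 in eMZB_KO and 21.1 ± 0.568 in TrB_KO, and 62.0 ± 4.62 in eMZB_WT and 19.1 ± 2.75 in TrB_WT. The gene that fell was Cdc25b, a phosphatase that activates CDK1, with 7.57 ± 0.122 in eMZB_KO and 21.9 ± 1.39 in TrB_KO, and 9.19 ± 1.26 in eMZB_WT and 23.1 ± 0.438 in TrB_WT.

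Of 48 DNA replication genes, 22 were called higher and 3 lower in KO, and 23 higher and 2 lower in WT, with a median log2 change of 0.41 in both. Rrm2, of nucleotide synthesis, averaged 15.4 ± 0.433 in eMZB_KO and 5.42 ± 0.702 in TrB_KO, and 15.6 ± 0.928 in eMZB_WT and 4.69 ± 1.01 in TrB_WT. Among 22 regulators of the DREAM complex and the E2F family, which switch cell cycle promoters, 5 were called higher and 2 lower in KO, and 6 higher and 3 lower in WT. Foxm1, an activator of mitosis genes, averaged 2.43 ± 0.111 in eMZB_KO and 1.25 ± 0.339 in TrB_KO (log2 change 0.62, adjusted p = 0.0584), and 3.08 ± 0.823 in eMZB_WT and 1.19 ± 0.739 in TrB_WT (log2 change 0.93, adjusted p = 0.00804). E2f2 fell in both, with 3.79 ± 0.846 in eMZB_KO and 11.7 ± 0.547 in TrB_KO, and 4.12 ± 0.236 in eMZB_WT and 12.5 ± 0.770 in TrB_WT.

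Of G1 cyclins, kinases and inhibitors, 5 of 11 were called higher and 2 lower in KO, and 5 higher and 3 lower in WT. Of genes that restrain proliferation, 2 of 19 were called higher and 8 lower in KO, and 4 higher and 6 lower in WT. Between KO and WT, where 0.386% of all genes were called higher and 0.112% lower in TrB, and 0.335% higher and 0.0711% lower in eMZB, calls in these lists were Myc and Mcm6, higher in TrB_KO, and Btg2, an antiproliferative gene, lower in both cell types. Myc, a driver of growth and G1 entry, averaged 8.72 ± 0.548 in TrB_KO and 5.72 ± 0.514 in TrB_WT (limma adjusted p = 0.039), and Mcm6, of the replicative helicase, 8.75 ± 1.45 in TrB_KO and 5.13 ± 0.944 in TrB_WT (limma adjusted p = 0.0469). In eMZB neither was called, but all KO libraries lay above all WT libraries for both: Myc averaged 23.7 ± 2.51 in eMZB_KO and 16.5 ± 1.15 in eMZB_WT (limma adjusted p = 0.0617), and Mcm6 15.1 ± 1.01 in eMZB_KO and 12.5 ± 0.449 in eMZB_WT (limma adjusted p = 0.991). Btg2 averaged 16.0 ± 0.770 in eMZB_KO and 26.3 ± 0.962 in eMZB_WT, and 27.8 ± 2.03 in TrB_KO and 38.7 ± 3.54 in TrB_WT (limma adjusted p = 0.00326 in eMZB and 0.0398 in TrB).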

How the data were processed

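RNA of 12 libraries of 2000 sorted B cells each, 3 per group, was amplified with SMART-Seq v4 and made into Nextera XT libraries, which do not mark strand, per the labels' protocols. The authors deposited FPKM values per gene. STAR and the mm10 build are named in the submitters' processing notes; what counted reads, with which annotation, and how genes were selected is not given in the sources used here. Of 9842 Entrez IDs 9833 matched a symbol, and 0 value columns were unused.

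FPKM were divided by median-of-ratios factors and log2(value + 1) was fitted with limma 3.58.1 (R 4.3.3, trended variance) to 4 group means over 12 libraries (8 residual degrees of freedom). There were 5 contrasts: eMZB against TrB in KO and in WT, KO against WT in eMZB and in TrB, and the interaction. Adjustment was by Benjamini-Hochberg over 9842 genes at 0.05. The steps were tested on simulated data.

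FPKM values of 9842 of 9842 genes came out as whole reads within 0.02 reads, with a median gene length of 3043.5 bases; 177 of 197 small RNA genes gave the annotated length. These recovered reads gave depth and a voom alternative chosen after the data were seen. PCR reads are not independent molecules.

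Replicate numbers come from the labels. Deviations of same-numbered libraries correlated at 0.161, 0.106 and 0.292 between eMZB_KO and TrB_KO. In the other contrasts at least 1 correlation was under 0.1, but some were higher. Between eMZB_WT and TrB_WT number 3 had 0.273, and between eMZB_KO and eMZB_WT numbers 2 and 3 had 0.183 and 0.219. Both libraries labelled wild type with low Kdm1a carry the number 3. Nothing in the labels says what a number shares, so the main fit did not pair libraries. Its calls and p-values therefore leave out any pairing of libraries, whether of eMZB_KO with TrB_KO or of other groups. The replicate number entered only as a block in an alternative.

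Values in every library are given for up to 12 called genes per contrast with the largest change, for Mki67, Top2a, Ccnb1 and Cdk1, and, where none was called, for up to 4 genes with the smallest adjusted p, ties ordered by p; others named with values were chosen after these were seen. The members and lists were chosen with earlier results of these data known. Alternatives were other scaling, pseudocount (0.1), a filter (mean of at least 2), contrast groups only, the block, and libraries left out. Motifs were matched in RefSeq windows with Python 3.11.15, numpy 2.4.6 and pandas 2.3.3, and figures drawn with matplotlib 3.10.9.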

Additional observations from a re-analysis of the deposited data

How the results depend on the processing

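On FPKM as deposited the median of all genes moved by 0.24 (KO eMZB against TrB), 0.67 (WT eMZB against TrB), 0.06 (eMZB KO against WT), 0.52 (TrB KO against WT) and -0.45 (interaction) on the log2 scale. In KO eMZB, 37 mitosis genes were called higher. On that scale 12 were, 11 of them among the 37 and Spag5 in addition, and leaving out 1 library gave 24 to 38. Over all genes the KO counts were 1398 in the main fit, 387 as deposited and 995 to 1609 with 1 library left out. Of 37 in WT eMZB, 18 were called without both libraries labelled wild type with low Kdm1a, and leaving out 1 library gave 28 to 37. Over all genes the WT counts were 1440 in the main fit, 1052 without both and 1022 to 1731 with 1 library left out. Without those 2 libraries fewer libraries enter, and the median log2 change was also smaller, 0.52 against 0.72. In TrB, KO against WT, 1 gene (Stmn1) was called among genes with a mean of at least 2, where fewer genes are tested, and 0 to 1 with 1 library left out. With the replicate number as a block, 37 were called in KO and 36 in WT (Incenp lost), and 0 in the other contrasts; no other call changed than these and those of Prc1 and Spag5. Counts of genes called lower were 0 in each alternative for these 5 contrasts.

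Signs turned for changes near 0, none of them called; the cause was not tested. As deposited, the log2 change was -0.0099 for Cks1b in the interaction, 0.36 for Mki67 and 0.38 for Cdk1 in TrB KO against WT, and 0.016 for Top2a and 0.0063 for Cdk1 in eMZB KO against WT. Under quantile normalization Mki67 had 0.011 and Cdk1 0.081 in TrB. Without both low-Kdm1a libraries Ccnb1 had -0.22 in TrB and Cdk1 0.038 in eMZB. Ccnb1 in TrB had -0.062 without both TrB libraries numbered 3 and -0.23 by voom. With 1 library left out, TrB KO against WT ran from -0.31 to 0.14 for Mki67, -0.22 to 0.27 for Ccnb1 and -0.18 to 0.13 for Cdk1, and eMZB KO against WT from -0.14 to 0.0048 for Top2a and -0.23 to 0.054 for Cdk1. Of 1001 alternatives for 48 single-gene results, 960 kept direction and side of the threshold, 18 lost the call, 2 gained it and 21 turned sign. TrB values of Plk1, Ube2c and Bub1 rest on few reads, which limits their precision.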
